A study of Mus musculus with 8 samples.

Results

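The 9 genes described here are outputs of the circadian clock: Dbp, Tef, Hlf, Nfil3, Ciart, Bhlhe40, Bhlhe41, Usp2 and Wee1. They were selected on 2 grounds and taken by name from the 37046 gene features of the deposited files, and all 9 were present and passed the filter on low counts. Usp2 was chosen by its measured level, which was low after endostatin in these same libraries, and the other 8 genes were listed as established clock outputs. The endostatin and batch differences of the 9 genes are therefore given as a description, with no p-value for a single member.

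White adipose tissue came from wild-type female C57BL/6J mice that received endostatin at 50 mg/kg or phosphate-buffered saline (PBS, the control) through the tail vein, and was taken 2 h later. Endostatin is a fragment of collagen XVIII that restrains the growth of blood vessels. Each group had 4 libraries, and food was withdrawn from all mice after the injection. The depot is labelled epididymal although the mice were female, and 10 adipocyte markers summed to between 59370 and 68480 TPM (a level per transcript length, with equal totals in all libraries) in endostatin libraries and between 39690 and 81290 TPM in control libraries. In each group, replicates 1 and 2 belonged to batch 1 and replicates 3 and 4 to batch 2. The series title places the work in the day, and the sources used here give no clock hour for the injection or the sampling of each mouse. Libraries are not tied to single mice in the labels, so that errors and p-values measure the spread between these libraries, some of which may be technical.

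The mammalian clock is a loop in which the transcription factors BMAL1 (gene Arntl) and CLOCK bind E-boxes in DNA and switch on their own repressors, the PER and CRY proteins. The same factors drive output genes, many of which encode further regulators. DBP, TEF and HLF are related bZIP activators that bind D-boxes, and NFIL3 is a bZIP repressor of the same sites. CIART, BHLHE40 (DEC1) and BHLHE41 (DEC2) repress transcription driven by BMAL1 and CLOCK. USP2 removes ubiquitin from target proteins, clock proteins among them, and WEE1 is a kinase that holds back entry into mitosis. In mouse adipose tissue, as in liver, Dbp, Tef and Hlf messages are strongly rhythmic over the day.

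The RefSeq promoter table of build GRCm38.p6 held 8 windows for 7 of the 9 genes, each running from 250 bases before to 50 bases after a gene start. The deposited files were made on GRCm39, per the submitters' processing notes, and no value was read at these positions. The canonical E-box, CACGTG, which reads the same on both strands, was present in 4 of the 8 windows, in 3 genes, against 7.15% of the 32851 mouse windows searched. Ciart had 3 matches, beginning 116, 58 and 44 bases before its start, and 0.088% of all windows had 3 or more. Bhlhe41 had 1 match beginning 153 bases before its start, and each of the 2 Tef windows had 1, beginning 127 and 138 bases before the start. A variant E-box, CACGTT on either strand, was in none of the 8 windows and in 4.685% of all. The D-box words TTATGTAA and TTACGTAA, on either strand, were in none of the 8 windows and in 1.056% of all. The REV-ERB and ROR element, searched as AGTAGGTCA or AGTGGGTCA on either strand, was in the Nfil3 window and in 0.469% of all windows. The windows of Dbp, Hlf and Usp2 held none of these words, and a match or its lack describes these letters only.

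The windows of 4 genes are printed 5′ to 3′ on the strand of the gene, with motif matches in capitals: Ciart and Bhlhe41 for their E-boxes, Nfil3 for its ROR element and Usp2 because its level differed most between the groups. They lie at chr3:95882179-95882478 (minus strand), chr6:145865371-145865670 (minus strand), chr13:52980990-52981289 (minus strand) and chr9:44084670-44084969 (plus strand) of GRCm38.p6. The match in Nfil3 is the element read on the opposite strand, and the Usp2 window has no capitals.
Ciart: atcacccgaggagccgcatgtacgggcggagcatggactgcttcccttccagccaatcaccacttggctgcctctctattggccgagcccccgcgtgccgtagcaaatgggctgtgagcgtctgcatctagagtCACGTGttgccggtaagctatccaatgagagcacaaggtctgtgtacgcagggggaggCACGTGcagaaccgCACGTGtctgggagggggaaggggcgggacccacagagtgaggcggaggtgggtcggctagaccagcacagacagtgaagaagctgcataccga
Bhlhe41: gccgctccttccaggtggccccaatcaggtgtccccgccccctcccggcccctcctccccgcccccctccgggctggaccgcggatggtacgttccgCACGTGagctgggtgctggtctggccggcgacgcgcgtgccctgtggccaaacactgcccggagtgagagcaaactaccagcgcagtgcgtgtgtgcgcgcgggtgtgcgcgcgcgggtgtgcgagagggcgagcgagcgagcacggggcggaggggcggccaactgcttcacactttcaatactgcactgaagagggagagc
Nfil3: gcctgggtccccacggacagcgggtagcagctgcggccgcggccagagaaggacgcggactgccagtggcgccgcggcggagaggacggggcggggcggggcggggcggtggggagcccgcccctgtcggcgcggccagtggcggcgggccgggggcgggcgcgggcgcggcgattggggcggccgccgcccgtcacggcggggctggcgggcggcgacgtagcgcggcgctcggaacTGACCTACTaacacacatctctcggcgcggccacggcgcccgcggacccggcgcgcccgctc
Usp2: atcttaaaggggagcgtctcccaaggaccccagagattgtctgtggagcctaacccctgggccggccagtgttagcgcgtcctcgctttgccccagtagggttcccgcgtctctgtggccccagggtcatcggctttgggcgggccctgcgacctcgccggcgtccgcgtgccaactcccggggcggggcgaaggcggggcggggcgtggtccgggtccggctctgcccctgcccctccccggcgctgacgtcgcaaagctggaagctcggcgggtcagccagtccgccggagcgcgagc

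Sequencing gave 17197721 to 23786594 estimated counts in endostatin libraries and 15826783 to 19221886 in control libraries, and 15184 genes were tested. There were 3 pairs of libraries with more RNA of another tissue or cell type. Of 15 skeletal muscle markers, 14 were highest in controls 1 and 4, and the 15 summed to between 138.3 and 164.7 TPM in endostatin libraries, against 396.1, 92.36, 105.7 and 679.3 TPM in controls 1 to 4. Among them Myh4, Myh2, Myh7, Tnni2, Tnnc2 and Pvalb were at 0 in at least 1 library. Of 13 oviduct and uterus markers, 9 were highest in endostatin 4 and control 3, with sums of 816.5 and 1168 TPM in those libraries and 122.8 to 174 TPM in the other 6, and Pax8, Ltf, Foxj1 and Wfdc2 were at 0 in at least 1 library. All 10 macrophage markers were highest in endostatin 3 and 4, with sums of 2051 and 2111 TPM there and 943.2 to 1408 TPM in the other 6 libraries, and none was at 0 in any library. Beside these pairs, hepatocyte markers were higher in endostatin 1, 2 and 4 than in every control library, except for Cyp2e1, Hp and Tat. Of these 18 markers, 8 were at 0 in at least 1 library. In bulk tissue, fewer cells of a type and less RNA per cell cannot be told apart.

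Levels between genes were compared per transcript length, as TPM over all 8 libraries. Dbp, at 222.4 ± 79.0 TPM, and Tef, at 175.3 ± 40.8 TPM, stood highest (mean ± SD, n = 8), and their ranges of 91.9 to 309.4 and 118.1 to 230.7 TPM overlapped. Bhlhe40 followed at 42.2 ± 24.5 TPM. Hlf (18.6 ± 4.04 TPM), Usp2 (17.4 ± 8.33 TPM), Ciart (16.1 ± 9.89 TPM) and Bhlhe41 (15.0 ± 6.58 TPM) lay within each other's spread. Wee1, at 8.98 ± 3.17 TPM, and Nfil3, at 6.94 ± 2.52 TPM, were lowest and also overlapped. The widest range between libraries was that of Ciart, whose highest library had 12.3-fold the TPM of its lowest, and the narrowest that of Tef, at 1.95-fold.

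**Figure D1:**
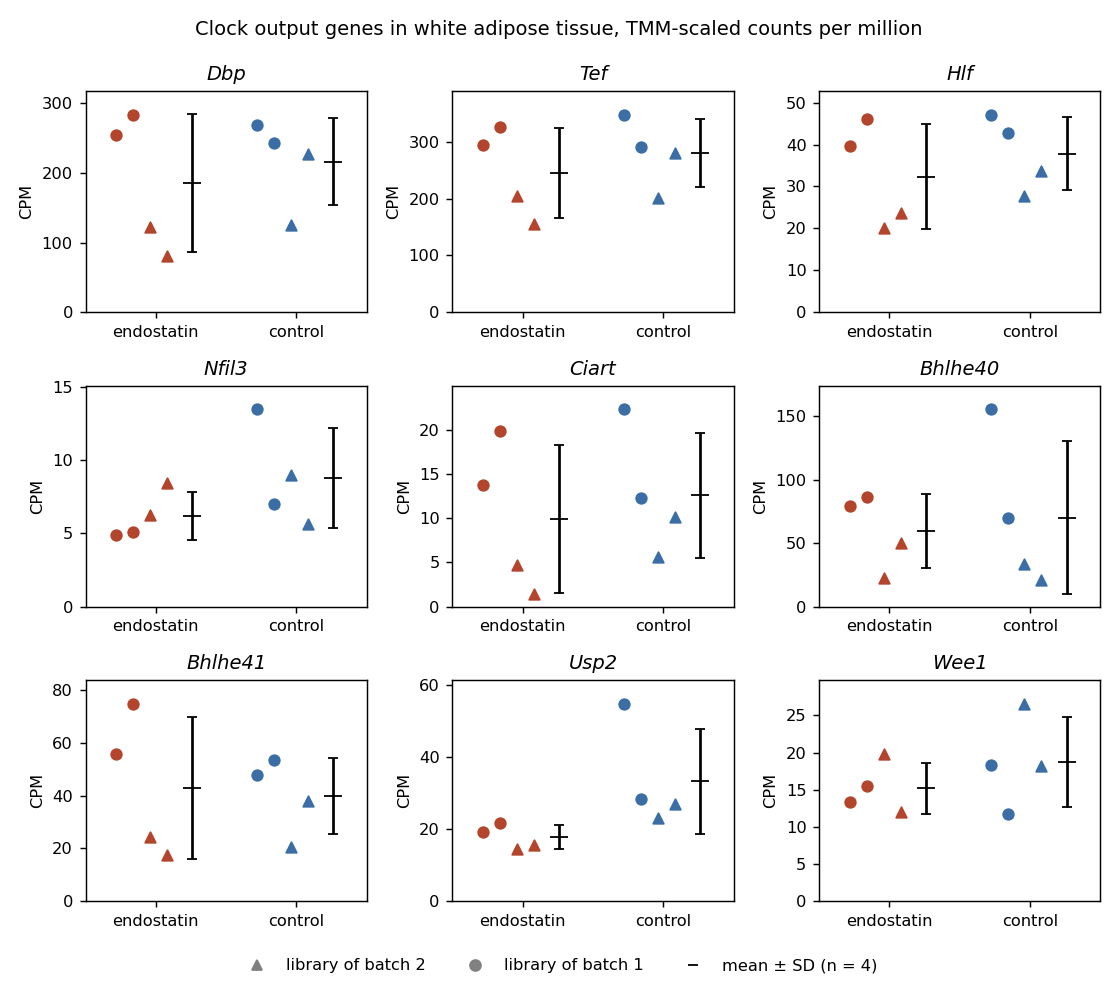
Level of each of the 9 clock output genes in every library, in TMM-scaled CPM, with endostatin left of control, where circles are batch 1 libraries, triangles batch 2 libraries and black bars the group mean ± SD (n = 4). The groups are apart for Usp2 alone, with endostatin libraries at 14.6 to 21.7 CPM and control libraries at 23.1 to 54.8 CPM.

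Usp2 differed most between the groups among the 9 genes. Its level was 19.3, 21.7, 14.6 and 15.7 CPM (counts relative to the library total, scaled by the TMM method to even out library composition) in endostatin libraries 1 to 4, against 54.8, 28.5, 23.1 and 26.9 CPM in control libraries 1 to 4. Every endostatin library was below every control library, with means of 17.8 ± 3.26 CPM in endostatin libraries and 33.3 ± 14.5 CPM in control libraries (SD, n = 4 each). With batch in the model, the log2 fold change, endostatin over control, was -0.87 ± 0.20 (SE), a ratio of 0.546, with a 95% interval of -1.34 to -0.41. Within batches the log2 fold change was -0.72 ± 0.29 in batch 2 and -1.02 ± 0.29 in batch 1, with 2 libraries per group in each. This is the contrast from which Usp2 was chosen, so its size describes these libraries and is not independent evidence of a change. Endostatin and control libraries did not overlap in 1 of the 9 genes, and among all 15184 genes in 1.64% in either direction and in 0.698% with endostatin libraries lower.

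Control 1 held the highest Usp2 level and controls 1 and 4 held the most muscle RNA. Without control 1 the Usp2 log2 fold change was -0.62, and without controls 1 and 4 it was -0.54. Controls 2 and 3 had the lowest muscle sums of all libraries, and their Usp2 levels were 28.5 and 23.1 CPM. Endostatin 3 and 4 held the most macrophage RNA and had the lowest Usp2 levels of all libraries. In batch 1, which holds neither, macrophage markers summed to 1185 and 1260 TPM in endostatin libraries and to 943.2 and 1408 TPM in control libraries, and the Usp2 log2 fold change was the -1.02 given above. Batch 1 holds control 1, whose Usp2 level was 54.8 CPM against 28.5 CPM in control 2. It also holds endostatin 1 and 2, in which most hepatocyte markers were above those of every control library. The part of muscle, macrophage and liver RNA in these differences was not tested.

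Usp2 makes messages from more than 1 start. In the GENCODE M21 annotation, a long form of 619 residues is encoded by messages from an upstream start. Short forms of 396 and 393 residues are encoded by messages that begin 17918 and 17929 bases downstream of it. The Usp2 promoter window printed earlier surrounds this downstream start. The last 1042 coding bases of the long form and of the 396-residue form are identical, and 815 and 146 coding bases at the 5′ ends are their own. The first 60 coding bases are shown because they separate the long from the short form, with the start codon in capitals.
Usp2 long form: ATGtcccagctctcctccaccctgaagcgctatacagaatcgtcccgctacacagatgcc
Usp2 short form: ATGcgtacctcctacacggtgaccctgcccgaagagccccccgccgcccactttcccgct

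Counts assigned to the upstream start were 11.4, 11.5, 10.5 and 10.6 CPM in endostatin libraries 1 to 4, against 28.9, 18.2, 14.2 and 14.0 CPM in control libraries 1 to 4. The groups did not overlap, and means of 11.0 ± 0.56 CPM in endostatin libraries and 18.8 ± 6.99 CPM in control libraries gave a ratio of 0.584. Usp2 was chosen for its low level in these endostatin libraries, so this separation is not independent evidence of a change. Counts assigned to the downstream start were 7.89, 10.2, 4.19 and 5.07 CPM in endostatin libraries and 25.6, 10.3, 8.92 and 12.9 CPM in control libraries. These groups overlapped, since 10.2 CPM in endostatin 2 lay above 8.92 CPM in control 3, and means of 6.83 ± 2.73 CPM in endostatin libraries and 14.4 ± 7.61 CPM in control libraries gave a ratio of 0.473. The upstream start carried 62.7 ± 8.16% of Usp2 counts in endostatin libraries and 57.5 ± 6.07% in control libraries, a difference smaller than the spread between libraries. The message for the 393-residue form was listed at 0 in controls 2 and 4 and took 16.3% of counts in control 3, so the split between the short forms was unsteady within a group. Reads in the shared part are divided among transcripts by Salmon's model, and the error of that division was not analysed here.

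**Figure D2:**
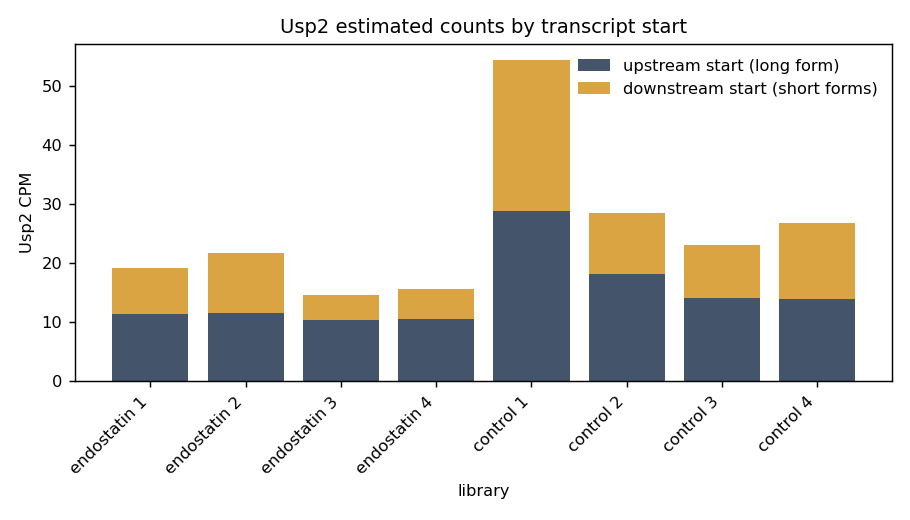
Usp2 estimated counts in each library, in CPM, stacked by transcript start, with the upstream start (long form) below and the downstream start (short forms) above, and endostatin libraries left of control libraries. The upstream part lies between 10.5 and 11.5 CPM in endostatin libraries and between 14.0 and 28.9 CPM in control libraries, and the downstream parts overlap between the groups.

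Among the D-box activators, Dbp had 254.5, 284.0, 121.7 and 80.8 CPM in endostatin libraries 1 to 4, against 269.3, 243.0, 125.9 and 227.9 CPM in control libraries 1 to 4. The groups overlapped, and the lowest library was endostatin 4. The log2 fold change of Dbp was -0.37 ± 0.26 with a 95% interval of -0.96 to 0.23. It was -0.81 ± 0.31 in batch 2 and 0.07 ± 0.31 in batch 1, and leaving out control 4 brought the value over both batches to -0.08.

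Tef had 294.5, 326.8, 204.4 and 156.2 CPM in endostatin libraries and 348.8, 291.7, 201.9 and 281.1 CPM in control libraries. The groups overlapped, and the log2 fold change was -0.23 ± 0.16. The message Tef-202, from the first start, carried 35.6 ± 3.33% of Tef counts in endostatin libraries and 37.1 ± 5.10% in control libraries. Tef-201, from the second start, carried 49.0 ± 3.50% in endostatin libraries and 47.0 ± 5.21% in control libraries. These 2 shares differed between the groups by less than the spread. They are not totals per start, since other messages begin near the first start. Among those, Tef-203 carried 10.6 ± 1.02% in endostatin libraries and 10.0 ± 0.43% in control libraries. Hlf had 39.8, 46.1, 20.1 and 23.6 CPM in endostatin libraries and 47.2, 42.8, 27.7 and 33.8 CPM in control libraries. In batch 2 both endostatin libraries lay below both control libraries for Hlf, and in batch 1 they were interleaved. The log2 fold change of Hlf was -0.28 ± 0.13 with a 95% interval of -0.58 to 0.02, the narrowest among the 9 genes.

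Nfil3, the repressor at the same sites, had 4.91, 5.08, 6.25 and 8.45 CPM in endostatin libraries and 13.5, 7.00, 8.96 and 5.65 CPM in control libraries. Both endostatin libraries of batch 1 lay below both controls, and in batch 2 the endostatin libraries lay between the controls. The log2 fold change was 0.01 ± 0.38 in batch 2 and -1.03 ± 0.38 in batch 1, and over both batches it was -0.51 ± 0.32. Without control 1 the value over both batches was -0.19.

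Of the E-box repressors, Ciart was the most variable. It had 13.7, 19.8, 4.75 and 1.46 CPM in endostatin libraries 1 to 4, against 22.3, 12.3, 5.64 and 10.1 CPM in control libraries 1 to 4. The lowest level rested on 27 estimated counts in endostatin 4. The groups overlapped, and the log2 fold change of -0.66 ± 0.45 had a 95% interval of -1.71 to 0.38.

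Bhlhe40 had 79.4, 86.2, 22.8 and 49.9 CPM in endostatin libraries and 155.5, 69.7, 33.9 and 21.4 CPM in control libraries. Control libraries held both its highest and its lowest level. Bhlhe41 had 55.6, 74.6, 24.2 and 17.5 CPM in endostatin libraries and 47.6, 53.5, 20.4 and 38.0 CPM in control libraries. For Bhlhe41 both endostatin libraries of batch 1 were above both controls, and endostatin 4 was the lowest of all 8. The log2 fold changes were -0.03 ± 0.35 for Bhlhe40 and -0.05 ± 0.26 for Bhlhe41, and the sign of each turned under 6 of 19 alternative settings. Within batches Bhlhe40 gave 0.39 ± 0.48 in batch 2 and -0.44 ± 0.47 in batch 1, and Bhlhe41 gave -0.49 ± 0.32 in batch 2 and 0.36 ± 0.31 in batch 1.

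Wee1 had 13.4, 15.6, 19.8 and 12.0 CPM in endostatin libraries and 18.3, 11.8, 26.5 and 18.2 CPM in control libraries. The groups overlapped, and its log2 fold change was -0.27 ± 0.23. Control 2 had the lowest and control 3 the highest Wee1 level.

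All 9 log2 fold changes were negative, with a median of -0.28, against 8107 of 15184 genes negative and a median of -0.01 over all genes. The median of the 9 was -0.49 in batch 2 and -0.06 in batch 1. Without controls 1 and 4 it was -0.17, and 7 of the 9 were negative. The 9 signs are not separate observations. With batch means removed, Dbp and Tef correlated at 0.968, although Dbp and Bhlhe40 did at -0.556, and Usp2 was chosen for its low level. The 95% interval included 0 for 8 of the 9. In edgeR's quasi-likelihood test with Benjamini-Hochberg adjustment over all genes, 0 of the 9 genes were called at an adjusted p under 0.05, and percent called among all genes was 0%. The lowest adjusted p of any gene was 0.409. At an unadjusted p under 0.05 there were 485 genes (3.19%), and limma-voom called 0 of the 9. DESeq2 called 0 of the 9 as well, with 0.0263% of all genes called. Within batches, 5 of the 9 genes were negative in both: Tef, Hlf, Ciart, Usp2 and Wee1. The test of whether the endostatin difference itself differed between batches called 0 of the 9 in edgeR, with 0% of all genes called. It gave 0 of the 9 at an unadjusted p under 0.05, against 527 genes (3.47%), and DESeq2 called 0 of the 9, with 0.171% of all genes called.

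**Figure D3:**
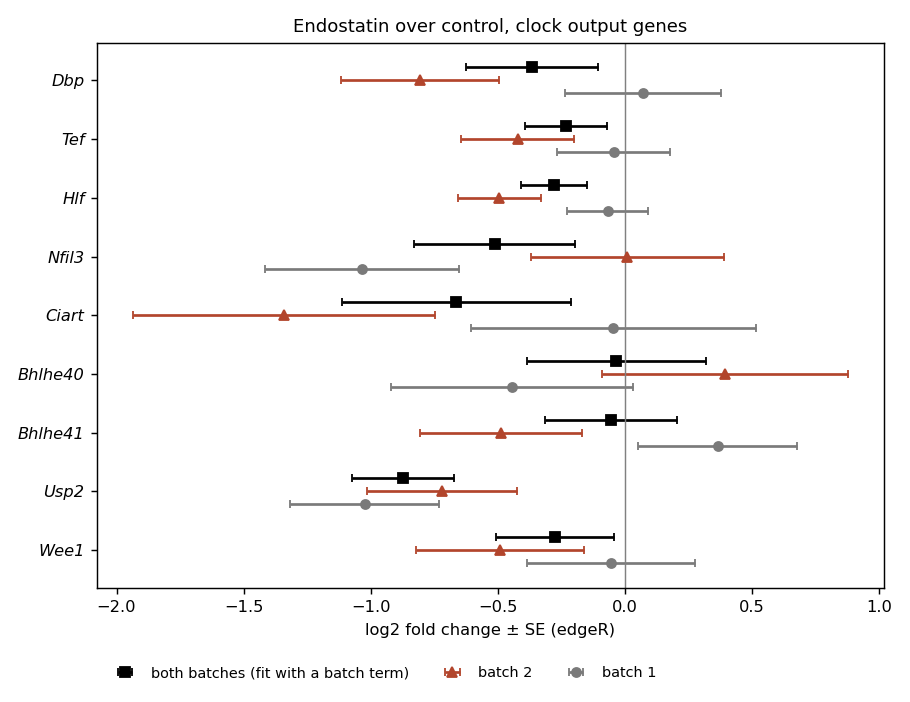
Log2 fold change ± SE, endostatin over control, of the 9 clock output genes over both batches (squares), within batch 2 (triangles) and within batch 1 (circles), with a vertical line at 0. Usp2 lies lowest over both batches, at -0.87, and Dbp, Nfil3, Bhlhe40 and Bhlhe41 have values on opposite sides of 0 in the 2 batches.

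For 7 of the 9 genes the log2 difference between the batches was larger in size than that between the treatments. In 6 of the 9, all batch 2 libraries lay below all batch 1 libraries: Dbp, Tef, Hlf, Ciart, Bhlhe40 and Bhlhe41. Among all genes, 3.29% were apart in this direction and 6.42% in either. Dbp averaged 139.1 ± 62.6 CPM in batch 2 and 262.7 ± 17.8 CPM in batch 1, Tef 210.9 ± 51.8 CPM in batch 2 and 315.5 ± 27.4 CPM in batch 1, and Hlf 26.3 ± 5.88 CPM in batch 2 and 43.9 ± 3.35 CPM in batch 1 (SD, n = 4 each). The E-box repressors were further apart. Ciart averaged 5.50 ± 3.58 CPM in batch 2 and 17.1 ± 4.79 CPM in batch 1, Bhlhe40 32.0 ± 13.2 CPM in batch 2 and 97.7 ± 39.1 CPM in batch 1, and Bhlhe41 25.0 ± 9.07 CPM in batch 2 and 57.8 ± 11.7 CPM in batch 1.

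With treatment in the model, the log2 difference, batch 2 minus batch 1, was -1.77 ± 0.46 for Ciart, -1.61 ± 0.36 for Bhlhe40 and -1.22 ± 0.26 for Bhlhe41. It was -0.97 ± 0.26 for Dbp, -0.76 ± 0.13 for Hlf and -0.60 ± 0.16 for Tef. Usp2 gave -0.59 ± 0.20, with overlapping batches. Nfil3, at 0.03 ± 0.32, and Wee1, at 0.36 ± 0.23, were the 2 genes with a positive value, and the 95% interval of each included 0. The sign of Nfil3 turned under 5 of 17 alternative settings. The median over the 9 genes was -0.76, against 0.01 over all genes.

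In edgeR's test 0 of the 9 genes were called between batches, and 0.0395% of all genes were, 6 in number. At an unadjusted p under 0.05 there were 7 of the 9, against 9.96% of all genes. DESeq2 called 6 of the 9, the same 6 that did not overlap, against 1.17% of genes with an adjusted p, and limma-voom called 0 of the 9. The genes were chosen with earlier results of these data known, so these shares are a description and not independent evidence of a batch difference. Mitochondrial transcripts also differed between batches, taking 2.13 to 3.31% of counts in batch 2 and 4.23 to 5.19% in batch 1, and their part in the batch difference was not tested. Without endostatin 4 and control 3, the libraries with the most oviduct and uterus RNA, the log2 differences were nearer to 0 for Dbp (-0.62), Tef (-0.38), Hlf (-0.73), Ciart (-1.24), Bhlhe41 (-0.88) and Usp2 (-0.55). They were farther from 0 for Bhlhe40 (-2.11) and Wee1 (0.38), and Nfil3 turned to -0.23. Those 2 libraries are both in batch 2, and without them each group has 1 library there.

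**Figure D4:**
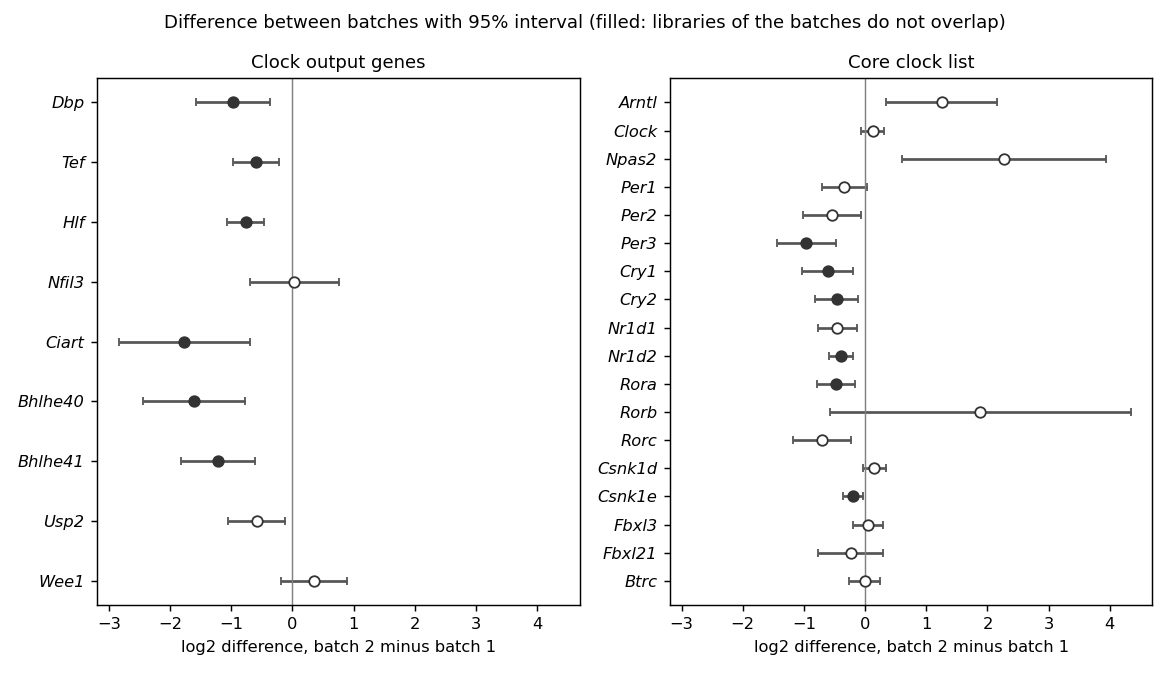
Log2 difference, batch 2 minus batch 1, with its 95% interval for the 9 clock output genes (left) and the 18 genes of the core clock list (right), where a filled point marks batches whose libraries do not overlap. The intervals of 7 output genes lie below 0, with Ciart at -1.77 the farthest. Arntl at 1.25 and Npas2 at 2.27 have intervals above 0, and their batches overlap.

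Within batch 2 the libraries kept a similar order for several of these genes. Endostatin 4 was the lowest of the 4 batch 2 libraries for Dbp, Tef, Ciart, Bhlhe41 and Wee1. Control 4 was the highest of them for Dbp, Tef, Hlf, Ciart, Bhlhe41 and Usp2. Control 1 was the highest of all 8 libraries for Tef, Hlf, Nfil3, Ciart, Bhlhe40 and Usp2. These libraries also stood out for RNA of other tissues: endostatin 4 for oviduct, uterus, macrophage and most hepatocyte markers, and controls 1 and 4 for muscle markers. The part of that RNA in the order was not tested.

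The core loop was read from a list of 18 genes, all of them tested. In edgeR's test 0 of the 18 were called after endostatin, 9 were positive and 9 negative, and the median log2 fold change was -0.01. Neither DESeq2 nor limma-voom called any. At an unadjusted p under 0.05 in edgeR there were 2, against 3.19% of all genes. They were Clock, the partner of BMAL1, at 0.22 ± 0.08, and the repressor Cry1, at -0.46 ± 0.18, each with an adjusted p of 0.9999. Over the alternative settings this count ran from 0, as without control 1, to 3 without control 2.

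Between batches edgeR called 0 of the 18, with 11 at an unadjusted p under 0.05, against 9.96% of all genes. DESeq2 called 2, Per3 and Nr1d2, against 1.17% of all genes, and limma-voom 0. By sign 12 were lower in batch 2, and 6 of those had batches that did not overlap, against 3.29% of all genes: Per3, Cry1, Cry2, Nr1d2, Rora and Csnk1e. Per3, a period gene, had 96.3, 61.0, 93.7 and 138.7 CPM in batch 2 (endostatin 3 and 4, control 3 and 4) and 182.7, 196.1, 199.5 and 167.5 CPM in batch 1 (endostatin 1 and 2, control 1 and 2), a log2 difference of -0.96 ± 0.21 with an adjusted p of 0.413. Arntl had 2.89, 6.23, 5.03 and 1.97 CPM in batch 2 and 1.65, 2.02, 1.13 and 1.93 CPM in batch 1, in the same order of libraries. Its log2 difference was 1.25 ± 0.39 with an adjusted p of 0.490, opposite in sign to that of Per3, and its batches overlapped. Its highest libraries were endostatin 4, the lowest library for Dbp and Ciart, and control 3. Those 2 libraries held the most oviduct and uterus RNA, and the part of that RNA in the Arntl difference was not tested. Npas2 also had a positive log2 difference, at 2.27 ± 0.72, with overlapping batches. Its highest level, 15.92 CPM, was in control 3.

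**Figure D5:**
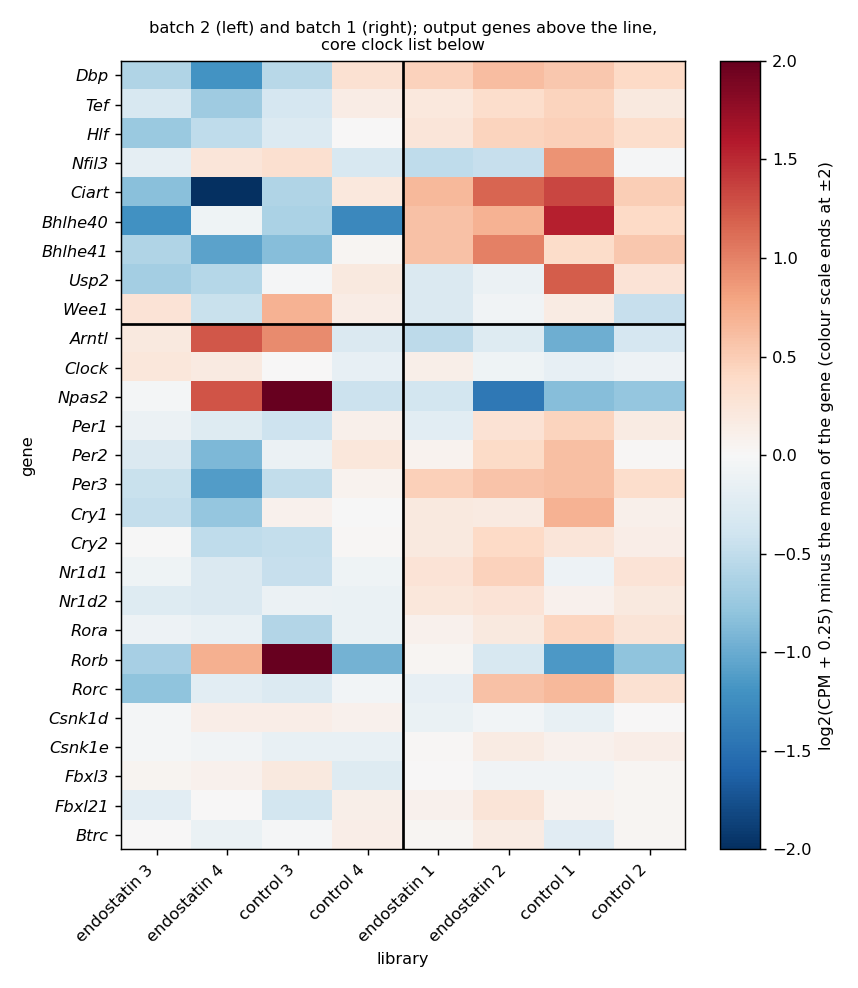
Level of the 9 clock output genes (above the line) and the 18 core clock genes (below it) in each library, with batch 2 left of batch 1, as log2 of CPM plus 0.25 minus the mean of the gene over the 8 libraries, with the colour scale ending at 2 either way. Dbp, Tef, Hlf, Ciart, Bhlhe40 and Bhlhe41 are lower in batch 2 libraries than in batch 1 libraries, and Arntl is highest in endostatin 4.

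Another 4 lists were read around the 9 genes, and edgeR, DESeq2 and limma-voom called none of their members after endostatin. Of 12 other clock-controlled genes, 3 were positive and 9 negative, with a median of -0.08. The cell cycle inhibitor Cdkn1a had a log2 fold change of 0.43 ± 0.20 and Pdp1, a phosphatase of pyruvate dehydrogenase, one of 0.06 ± 0.14. For Cdkn1a the value was 0.89 ± 0.16 in batch 2 and -0.04 ± 0.16 in batch 1, and all batch 2 libraries lay above all batch 1 libraries. Alas1, which starts haem synthesis, stood at -0.33 ± 0.20 and Nampt, which makes an NAD precursor, at -0.26 ± 0.16. Of 40 other ubiquitin-specific proteases, 14 were positive and 26 negative, with a median of -0.03, against the -0.87 of Usp2. Groups did not overlap in 1 of the 40, against 1.64% of all genes in either direction. That gene, Usp38, was named after its values were seen, and averaged 38.5 ± 0.91 CPM in endostatin libraries and 39.9 ± 0.25 CPM in control libraries. Usp35 stood at 0.33 ± 0.22, Usp32 at 0.07 ± 0.07, Usp14 at -0.19 ± 0.11 and Usp53 at -0.27 ± 0.16. Of 8 genes whose proteins are reported USP2 substrates, 1 was positive and 7 negative, with a median of -0.12. Arntl stood at 0.32 ± 0.39 and Aurka, a mitotic kinase, at -0.51 ± 0.40, and Cry1 was the only one of these 8 with an unadjusted p under 0.05. Of 9 tested genes that govern mitotic entry around WEE1, 1 was positive and 8 negative, with a median of -0.08. Within batches their median was -0.65 in batch 2 and 0.19 in batch 1. Pkmyt1, a kinase related to WEE1, stood at 0.22 ± 0.20, the phosphatase Cdc25a at -0.33 ± 0.26 and the kinase Plk1 at -0.69 ± 0.57. Control 3, rich in oviduct and uterus RNA, held the highest Cdc25a level, 12.4 CPM against 5.08 to 7.50 CPM elsewhere. It also held the highest Plk1 level, 5.31 CPM against 0.595 to 1.52 CPM elsewhere. The part of that RNA in these values was not tested. No member of the other 3 lists had an unadjusted p under 0.05.

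The genes whose levels followed Usp2 most closely over the 8 libraries, after batch means were removed, were Thap7 (Pearson r = 0.962), Fam136a (0.958), Fam8a1 (0.934), Trappc13 (0.931) and Ttpa (0.928), out of 13311 genes compared. Those closest to Dbp were Trmt5 (r = 0.988), Apex2 (0.982), Dhx38 (0.979), Per3 (0.976) and Syvn1 (0.971). The points share batch, depth and treatment, and these values describe likeness in 8 libraries only.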

How the data were processed

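Adipose RNA from 8 libraries, 4 per group, was read from transcript quantifications that the authors deposited. Per the labels' protocols, ribosomal RNA was depleted and libraries were strand-specific (dUTP). Salmon made the deposited estimated counts, per the submitters' processing notes, on GRCm39. Its version and index were not stated in the sources used here. TPM stands beside the counts as deposited, scaled by the authors' Salmon run to 1 total in each library.

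Each file lists 115620 transcripts, of which 113710 (98.35%) matched GENCODE M21 by identifier, and 1910 did not and were kept as features of their own. Estimated counts and TPM were summed per gene, and counts were rounded for the tests. filterByExpr kept 15184 genes. edgeR 4.0.16 in R 4.3.3 fitted batch and treatment with TMM scaling and a quasi-likelihood test, with p-values adjusted by Benjamini-Hochberg over all genes, and an interaction term gave the values within batches. SEs are the log2 fold change divided by the square root of its F. Alternatives were DESeq2 1.42.0, limma-voom (limma 3.58.1), other scalings, filters, length offsets and libraries left out. The code was tested on simulated data. A level of 3 counts corresponds to 0.126 to 0.19 CPM, by library, and this floor covers counting error only.

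The genes and lists were chosen with earlier results of these data known. All 9 members and any core clock gene could be named, and the other lists gave the 2 genes (or the only 1) on each side of 0 by smallest p, and genes like Usp2 and Dbp are the 5 with the highest correlation among genes averaging 1 CPM or more. The description of endostatin 4 repeats the read file stub of endostatin 3. Their counts differ, correlations of log2 CPM between libraries ran from 0.920 to 0.978, and both labels were used as given. The design text names 4 female mice, which may be per group or in all.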

Additional observations from a re-analysis of the deposited data

Results flagged for a closer look

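In 4 of 54 groups of 4 libraries, over the 27 genes of the output and core clock lists, 1 library stood apart from the other 3 by Dixon's ratio, and chance flags about 1 in 20 groups. Usp2 in control 1, at 54.83 CPM, had a gap to the next control that was at the critical share of the range of the controls. Control 1 also had the highest Cry1 level among the controls, at 15.78 CPM (0.891 of the range). Control 3 stood apart for Npas2, at 15.92 CPM (0.966), and for Rorb, at 19.63 CPM (0.985). Nr1d2, which encodes the repressor REV-ERBβ, had both endostatin libraries below both controls in batch 2, with a log2 fold change of -0.1502, and both above them in batch 1, with 0.1074. The test of that difference gave an unadjusted p of 0.1425 in edgeR and was not called.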

How the results depend on the processing

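All 9 output genes kept a negative endostatin log2 fold change in 19 settings, except Bhlhe40 and Bhlhe41, which turned positive in 6 each, and Wee1, at 0.00 without endostatin 4 and control 3. Usp2 ranged from -1.01 to -0.54, and its leave-one-out range was -1.01 to -0.62. DESeq2 called 3 genes higher and 1 lower after endostatin, where edgeR called 0, and 26 genes in the interaction, where edgeR called 0. Between batches edgeR called 1 gene higher and 5 lower. DESeq2 called 86 and 85, with 2 of the core clock list, limma-voom 2 and 8, and edgeR by library size alone 0 and 2. Without a filter 4 were higher. Without controls 1 and 4 there were 0 and 0, and without endostatin 4 and control 3 there were 3 and 24. Leaving out 1 library gave 0 to 2 higher and 0 to 16 lower, with 2 and 16 without endostatin 4. Hlf between batches moved to -0.53 with length offsets, and Nfil3 to 0.49 without controls 1 and 4. Library size alone moved the median batch difference of all genes to 0.13 and that of the 9 to -0.65. With the replicate number as a block in place of batch, edgeR called 0 genes after endostatin and 307 had an unadjusted p under 0.05. Deviations of same-numbered libraries from their group means correlated at 0.211, 0.144, -0.0732 and -0.295. Taken within batches, they correlated at 0.0125 in batch 1 and -0.352 in batch 2. Same-numbered libraries share a number and a batch, and these correlations cannot exclude any further pairing. No paired analysis was possible for the batch difference and the interaction because each number belongs to 1 batch. With 4 libraries per group, the median gene had a 95% interval of 0.39 either way on the log2 scale.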

Other observations

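The 18 hepatocyte markers summed to 2797, 3669, 3390 and 6186 TPM in endostatin libraries 1 to 4 and 3979, 5905, 1935 and 4258 TPM in control libraries 1 to 4, and the groups overlapped. The largest part was Cyp2e1, a cytochrome P450 that adipocytes also make, at 1681 to 3956 TPM in endostatin libraries and 1392 to 5242 TPM in control libraries. Albumin message was 194.2, 257.0, 17.2 and 487.4 TPM in endostatin libraries and 88.6, 51.1, 10.0 and 18.3 TPM in control libraries. Albumin and Cyp2e1 did not follow the same order of libraries. Apart from Cyp2e1, Hp and Tat, every hepatocyte marker was higher in endostatin 1, 2 and 4 than in every control library. Apoa1, for example, was at 23.6, 50.3, 0.677 and 109 TPM in endostatin libraries 1 to 4. In control libraries 1 to 4 it was at 7.78, 12.4, 0 and 0.108 TPM. The part of liver RNA in the endostatin differences was not tested. The 2 Dbp messages annotated with a retained intron together took 11.9 ± 1.54% of Dbp counts in endostatin libraries and 10.8 ± 1.96% in control libraries (SD, n = 4 each), and the groups overlapped for the sum. Dbp-205 took 11.9 ± 1.54% in endostatin libraries and 9.45 ± 1.54% in control libraries. Dbp-202 was at 0 in every endostatin library and at 0.477, 1.89, 1.95 and 0.912% in control libraries 1 to 4. It was named after its values were seen, and rested on 21.6 to 78.8 estimated counts per control library. The share of all messages that separate the groups in this way was not counted. The error in dividing shared reads between these messages was not analysed.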
